A study of Mus musculus with 7 samples.

Results

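The genes described here are 36 cell cycle genes, fixed by name as markers of S phase and mitosis in transit-amplifying medullary thymic epithelial cells (mTECs), the dividing precursors of the medulla. All 36 were found by symbol among the 55536 genes of the deposited table, and all 36 passed the filter on low values, so no member is missing from the counts below. RNA came from EPCAM-positive mTECs of mouse thymus, sorted fresh into SMART-seq lysis buffer. The 4 Cre-negative samples had the genotype Cre(-) Ikzf1fl/fl Pou2f3-/- and the 3 Cre-positive samples Cre(+) Ikzf1fl/fl Pou2f3-/-. The comparison asks how mTEC expression differs with Cre, which can delete the floxed gene of the transcription factor Ikaros, where tuft cells should be missing. Both groups share the floxed Ikzf1 alleles and the loss of Pou2f3, the factor on which tuft cells depend, and the genotypes written in the labels differ in Cre alone. No label used here states the Cre driver, the animals' age or whether animals were pooled. Samples go by their label numbers, 46, 48, 75 and 77 being Cre-negative, while 45, 76 and 80 are Cre-positive. Nothing in the labels states that these are separate animals, so a p-value measures the spread between these samples only.

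A cell that commits to divide passes from G1 into S phase when cyclin E and its kinase, with the E2F transcription factors, switch on the replication genes. The MCM proteins are loaded on DNA with the help of CDC6 and CDT1 and, together with CDC45 and the GINS complex, unwind it. Entry into mitosis is driven by CDK1 with the A- and B-type cyclins, and exit by the anaphase-promoting complex, which CDC20 activates and UBE2C supplies with ubiquitin. In the thymic medulla, most Aire-positive mTECs have left the cycle, and the dividing cells just before that stage carry most of this programme. In sorted bulk cells, fewer cycling cells and less of these RNAs per cycling cell cannot be told apart.

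Levels are normalized counts, which are gene counts divided by a size factor for each sample. Totals of the reads recovered from them ran from 9815958 to 12599078 per library. Genes with at least 10 reads numbered 19417 to 20467 in Cre-negative and 17169 to 18014 in Cre-positive libraries, so that fewer genes were read in every Cre-positive library, and the part of this in the values below was not tested. The defining mTEC markers Epcam, Krt8, Krt5, Cldn3, Cldn4 and H2-Aa were read in every library, with H2-Aa, an MHC class II chain, the most abundant. Of these 6, Krt5 was higher in Cre-positive samples and Cldn4 lower. Cre-negative 48 was the only library with reads of Y-linked genes (3938 normalized counts summed over 4 genes, against at most 1.0 elsewhere). The summed Ikzf1 level did not fall with Cre, at 1158 ± 42.7 normalized counts (SD, n = 4 Cre-negative samples) against 1605 ± 267 (SD, n = 3 Cre-positive samples), with a limma adjusted p of 0.0916. The floxed part of the gene is not given, so this level does not check the Cre labels.

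Most cell cycle genes did not differ detectably between the genotypes. In limma, on log2(normalized count + 1) over all 22878 genes tested, 2 of the 36 members were called at a Benjamini-Hochberg adjusted p under 0.05. Both were higher in Cre-positive samples, namely Mcm7 and Ccnb2, and none was lower. Among all genes tested 13.8% were called, 4.66% higher and 9.11% lower, against 5.56% of the members called, all higher. The members' share of higher genes was thus near the background. At an unadjusted p under 0.05 there were 5 members (Mcm7, Ccnb2, Gins2, Pcna and Ube2c), where 28.4% of all genes tested reached that level. The groups did not overlap for 3 members, 8.33%, against 25.3% of all genes tested. The members' median log2 fold change was 0.17, with 23 above 0 and 13 below, and that of all genes tested was -0.10. Scaled to library totals, the median of all genes moved to -0.29 and that of the members to -0.03, with 18 members on each side of 0 and no member called. The members' median thus lay 0.27 above that of all genes with size factors and 0.26 above it with library totals.

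**Figure D1:**
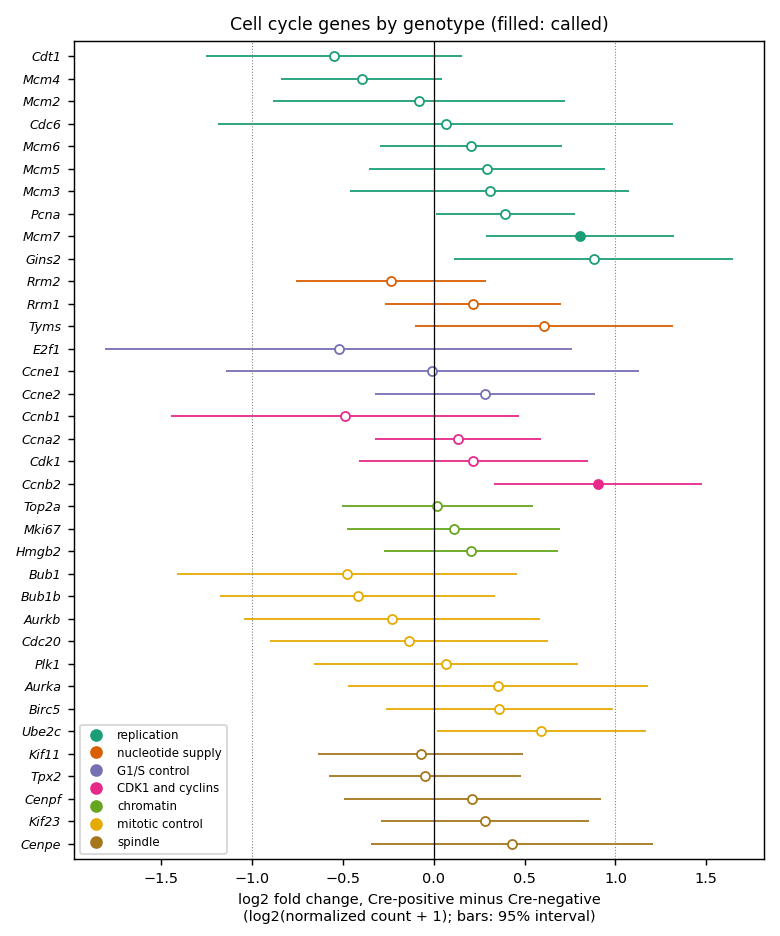
Log2 fold change of each of the 36 cell cycle genes, Cre-positive minus Cre-negative (x axis, log2(normalized count + 1) scale), ordered and coloured by role, with 95% intervals from limma as bars. Filled points are the 2 called genes, Mcm7 and Ccnb2, and dotted lines mark a 2-fold change in each direction, which the intervals of 16 genes reach.

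How large a change these samples could hide differed between genes. For 20 of the 36 members the 95% interval lay wholly within a 2-fold change in either direction, as it did for 24.3% of all genes tested. That share depends on the size of the change as well as on the width of the interval. These 20 include the proliferation antigen Mki67 (log2 fold change 0.11, interval -0.48 to 0.70), the topoisomerase Top2a (0.02, -0.50 to 0.55) and the S and G2 cyclin Ccna2 (0.14, -0.32 to 0.59). The other 16 intervals reached a 2-fold change, the widest being that of E2f1 (-0.52, interval -1.80 to 0.76), which had only 18 to 69 reads per library. For those genes a 2-fold difference lies within the interval.

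The replication genes gave the only called member of S phase. Mcm7 (ENSMUSG00000029730, chromosome 5, 138164583 to 138172422 on GRCm38), a subunit of the MCM2-7 helicase, had 274.9, 252.2, 413.5 and 336.0 normalized counts across the Cre-negative libraries 46, 48, 75 and 77. Its values across the Cre-positive libraries 45, 76 and 80 were 448.3, 659.9 and 556.4. Every Cre-positive sample was above every Cre-negative one, with Cre-negative 75 and Cre-positive 45 close to each other. The log2 fold change was 0.80 (SE 0.24, interval 0.29 to 1.32, limma adjusted p = 0.0420). Leaving out Cre-negative 46, 48 or 77 or Cre-positive 76 or 80 ended the call (limma adjusted p = 0.106, 0.0925, 0.0698, 0.148 and 0.0936). Library total scaling (0.60, limma adjusted p = 0.115) and testing without a filter on low values (0.0706) ended it too, as did a term for Y-linked reads, which sets Cre-negative 48 apart (0.0988). That term gives the same log2 fold change as leaving out Cre-negative 48, so it is not a separate check. On the opposite strand Mcm7 overlaps Cops6 and Ap4m1, and how the counting treated strand is not stated. Cops6 had 1037 ± 269 normalized counts (SD, n = 4 Cre-negative samples) against 1356 ± 213 (SD, n = 3 Cre-positive samples), and was not called (limma adjusted p = 0.238).

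The other 5 subunits of the same hexamer were not called and did not share a direction. Mcm4 had 560.6, 485.6, 538.7 and 698.9 normalized counts without Cre (libraries 46, 48, 75 and 77) and 493.2, 411.6 and 391.3 with it (libraries 45, 76 and 80). Those groups overlap only through Cre-negative 48 and Cre-positive 45, with a log2 fold change of -0.40 (SE 0.21, limma adjusted p = 0.230). Mcm2, Mcm3, Mcm5 and Mcm6 had log2 fold changes of -0.08, 0.31, 0.29 and 0.20. Mcm2 and Mcm5 shared their low library, Cre-negative 46, with 112.3 and 159.2 normalized counts against 197.3 to 341.2 and 229.7 to 365.4 in the other Cre-negative samples. Per kilobase of exon, Mcm7 made up 13.7%, 13.2%, 17.6% and 13.5% of the summed Mcm2 to Mcm7 level across the Cre-negative libraries 46, 48, 75 and 77, against 20.01%, 28.3% and 20.3% across the Cre-positive libraries 45, 76 and 80. Mcm4 made up 28.3% to 34.6% in Cre-negative samples and 17.6% to 27.2% in Cre-positive samples. Both shares were separate between the groups, were chosen after their values were seen, and carry no test.

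The remaining replication members were not called. Gins2, a subunit of the GINS complex that completes the helicase, had 115.6, 82.7, 104.5 and 179.9 normalized counts across the Cre-negative libraries 46, 48, 75 and 77, against 148.4, 207.3 and 318.7 across the Cre-positive libraries 45, 76 and 80. The groups overlap between Cre-negative 77 and Cre-positive 45, and the log2 fold change of 0.88 (SE 0.35) had a limma adjusted p of 0.121. Pcna, the sliding clamp of the replicative polymerases, had 983.0, 955.4, 1267.5 and 1273.7 normalized counts in Cre-negative samples, in the same order, and 1592.5, 1470.1 and 1326.6 in Cre-positive samples. Its groups did not overlap, although Cre-negative 77 and Cre-positive 80 nearly met, and the log2 fold change of 0.39 (SE 0.18) had a limma adjusted p of 0.162. The licensing factor Cdt1 had 117.1 to 173.4 normalized counts in Cre-negative and 75.2 to 144.3 in Cre-positive samples (log2 fold change -0.55, limma adjusted p = 0.300). Its partner Cdc6 had few reads, 20 to 101 per library, and a range of 4.62-fold over the 7 libraries.

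Nucleotide supply and G1/S control held no called member. Rrm1 and Rrm2, the subunits of ribonucleotide reductase, had log2 fold changes of 0.22 and -0.23 (limma adjusted p = 0.574 and 0.572). Tyms, which makes thymidylate, had 680.5, 390.1, 1277.4 and 1085.6 normalized counts without Cre (libraries 46, 48, 75 and 77) and 1252.9, 1287.8 and 1032.9 with it (libraries 45, 76 and 80). The Cre-positive values were close together, and the groups overlapped, with Cre-negative 46 and 48 below all other libraries (log2 fold change 0.61, limma adjusted p = 0.250). Ccne1 and Ccne2, the E-type cyclins, had log2 fold changes of -0.01 and 0.28, and E2f1, the founding E2F factor, -0.52 (limma adjusted p = 0.996, 0.551 and 0.611). Ccne1 varied 4.26-fold and E2f1 3.96-fold over the 7 libraries, with overlapping groups.

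Among the genes of mitotic entry, the B-type cyclins parted. Ccnb2 (ENSMUSG00000032218, chromosome 9, 70407692 to 70421547) had 533.0, 381.2, 448.6 and 676.2 normalized counts across the Cre-negative libraries 46, 48, 75 and 77, against 1383.5, 687.0 and 859.5 across the Cre-positive libraries 45, 76 and 80. All Cre-positive samples were above all Cre-negative ones, Cre-positive 76 by a narrow margin over Cre-negative 77. The log2 fold change was 0.91 (SE 0.26, interval 0.33 to 1.48, limma adjusted p = 0.0381). Leaving out any of the Cre-negative libraries 46, 48 and 75 or of the Cre-positive libraries 45 and 80 ended the call (limma adjusted p = 0.0738, 0.0947, 0.0772, 0.167 and 0.0657), with a log2 fold change of 0.62 without Cre-positive 45. Library total scaling (0.70, limma adjusted p = 0.0886) and the term for Y-linked reads (0.101) ended it too. Cyclin B1, encoded by Ccnb1, is the B-type cyclin that mice cannot develop without. It had 952.0, 429.5, 283.8 and 538.7 normalized counts in the Cre-negative samples and 708.5, 355.5 and 179.6 in the Cre-positive samples, in the same order. Its range was 5.30-fold over the 7 libraries, the widest of all members, and its log2 fold change was -0.49 (SE 0.44, limma adjusted p = 0.513).

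The ratio of Ccnb2 to Ccnb1 was 0.560, 0.888, 1.58 and 1.26 across the Cre-negative libraries 46, 48, 75 and 77, against 1.95, 1.93 and 4.79 across the Cre-positive libraries 45, 76 and 80. The groups were separate for this ratio, which was picked after its values were seen and has no test, and Cre-positive 80 stood far above the other Cre-positive samples. The pseudogene Ccnb2-ps, to which reads of Ccnb2 could be misassigned, had 40.3 ± 11.3 normalized counts (SD, n = 4 Cre-negative samples) against 24.2 ± 21.0 (SD, n = 3 Cre-positive samples). Cdk1, the kinase that both cyclins bind, had 731.9 to 1863.1 normalized counts in Cre-negative and 996.4 to 1843.3 in Cre-positive samples (log2 fold change 0.22, limma adjusted p = 0.671). Neither Cdk1 nor Ccna2 was called.

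**Figure D2:**
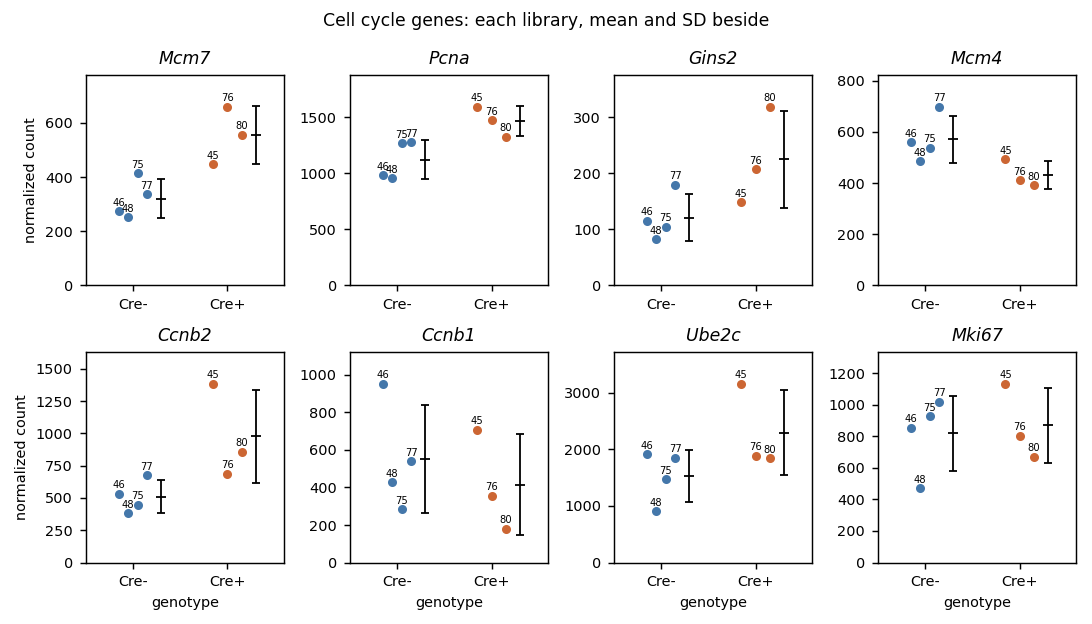
Normalized counts (y axis, from 0) of 8 cell cycle genes in each Cre-negative (blue) and Cre-positive (orange) library, numbered as in the labels, with the group mean and SD beside the points. Mcm7, Pcna and Ccnb2 have separate groups, whereas those of Ccnb1, Ube2c, Mki67, Mcm4 and Gins2 overlap.

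Chromatin, checkpoint and spindle genes held no called member. Hmgb2, a chromatin protein abundant in dividing cells, had the highest level of all members per kilobase of exon (1774 normalized counts per kilobase over the 7 libraries), and Cdc6 the lowest (9.40). Hmgb2 ran from 4051.3 to 6018.6 normalized counts in Cre-negative and from 4425.3 to 8452.5 in Cre-positive samples, with 8452.5 in Cre-positive 45 (log2 fold change 0.21, limma adjusted p = 0.589). Mki67 had 855.6, 472.8, 926.1 and 1020.4 normalized counts without Cre (libraries 46, 48, 75 and 77) and 1132.7, 804.1 and 671.6 with it (libraries 45, 76 and 80). The groups overlapped, with Cre-positive 45 the highest library and Cre-negative 48 the lowest (limma adjusted p = 0.834). Ube2c, the ubiquitin-conjugating enzyme of the anaphase-promoting complex, had 1910.7, 910.1, 1472.9 and 1853.8 normalized counts in Cre-negative samples and 3158.8, 1886.7 and 1848.8 in Cre-positive samples, in the same order. Only Cre-positive 45 lay clear of the Cre-negative range (log2 fold change 0.59, limma adjusted p = 0.164).

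Of the 8 mitotic control genes 4 had a log2 fold change above 0 and 4 below. The checkpoint kinase Bub1 and its relative Bub1b had -0.48 and -0.42 (limma adjusted p = 0.513 and 0.475). Aurkb and Birc5 belong to the same chromosomal passenger complex and had -0.23 and 0.36 (limma adjusted p = 0.742 and 0.449). Aurka and Plk1, kinases of the centrosome and spindle, had 0.35 and 0.07, and the activator Cdc20 had -0.13. The spindle motors Kif11, Kif23 and Cenpe had -0.07, 0.28 and 0.43, and the spindle and kinetochore proteins Tpx2 and Cenpf -0.04 and 0.21, none of them called (limma adjusted p from 0.471 to 0.930).

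The G2 and mitotic genes moved together from library to library within each genotype. Among Cre-positive samples, Cre-positive 45 was the highest for 19 of the 20 members of G2 and mitosis, the exception being Aurka, which was highest in Cre-positive 80. Over all genes tested Cre-positive 45 was the highest of its group for 31.5%. Among Cre-negative samples, Cre-negative 48 was the lowest for 14 of the 20, against 29.3% of all genes tested, and the highest for none. The summed level of these 20 genes was 20574.3, 12180.5, 15835.1 and 19472.2 normalized counts across the Cre-negative libraries 46, 48, 75 and 77, against 27946.8, 16124.9 and 15944.4 across the Cre-positive libraries 45, 76 and 80. Cre-positive 45 was above all other libraries, Cre-negative 48 below them, and Cre-positive 76 and 80 lay within the Cre-negative range.

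The 16 genes of G1/S and replication did not follow those libraries as closely. Cre-positive 45 was the highest of its group for 5 of the 16 and the lowest for 7. The median deviation from the group mean in Cre-positive 45 was -0.14 on the log2 scale for these 16 genes and 0.54 for the 20 of G2 and mitosis. In Cre-negative 46 it was -0.15 and 0.28. Cre-negative 48 was low in both sets (-0.27 and -0.46), whereas Cre-positive 76 was little below its group mean in either (-0.03 and -0.18). Cre-negative 48 was the lowest Cre-negative library for 9 of the 16. The summed level of the 16 was 4993.0, 4614.6, 6271.7 and 6894.0 normalized counts without Cre (libraries 46, 48, 75 and 77) and 6708.4, 6648.3 and 6710.9 with it (libraries 45, 76 and 80). The Cre-positive sums were alike, but single genes differed between those libraries. Mcm3 had 223.6, 206.3 and 487.9 and Gins2 148.4, 207.3 and 318.7 in Cre-positive 45, 76 and 80. A further 48 mitotic genes, from a list that holds no member, had the same libraries at the ends, with Cre-positive 45 the highest of its group for 40 and Cre-negative 48 the lowest for 33.

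**Figure D3:**
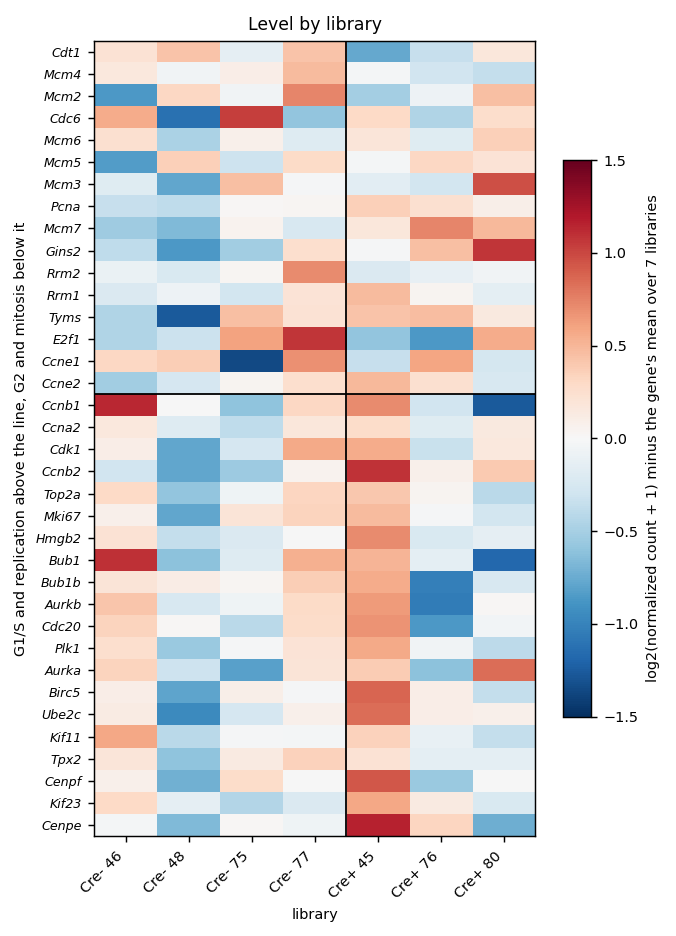
Level of each of the 36 genes (rows) in each of the 7 libraries (columns), as log2(normalized count + 1) minus the gene's mean over all libraries, red above and blue below. Below the horizontal line the 20 genes of G2 and mitosis are mostly red in Cre-positive 45 and mostly blue in Cre-negative 48, a pattern that the 16 genes above the line show less.

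Thymocytes also divide in the thymus, and their markers were read in these libraries. None of the 12 thymocyte markers was called, and none was at 0 in all libraries. Their summed level ran from 1010.6 to 1821.1 normalized counts in Cre-negative and from 795.0 to 3224.3 in Cre-positive samples. The thymocyte sum was 1919.5, 3224.3 and 795.0 normalized counts in Cre-positive 45, 76 and 80. The summed level of the members of G2 and mitosis was 27946.8, 16124.9 and 15944.4 in the same libraries. Cd3d, the most abundant of the 12, had 406.5 normalized counts in Cre-positive 45 and 665.9 in Cre-positive 76. The sums of 6 B cell markers overlapped between the groups (630.1 to 970.9 in Cre-negative and 657.2 to 885.1 in Cre-positive samples), with Ebf1 the most abundant and 1 marker, Pax5, lower. Of 8 myeloid and dendritic markers 1 was called higher, Lyz2, the most abundant, and 2 were called lower. Lyz2 was the only marker of this list with a log2 fold change above 0, and 7 were below (median of the list -0.83). Sums of the 8, which include Lyz2, ran from 5031.4 to 6837.4 in Cre-negative and from 7230.1 to 11353.0 in Cre-positive samples. Of 7 stromal and endothelial markers 1 was lower (sums 1334.8 to 1730.5 and 1376.5 to 1818.7, with Dcn the most abundant), and of 5 cortical epithelial markers 1, Ccl25, the most abundant (sums 12096.7 to 15220.2 and 5897.0 to 10617.6). Beside these counts, 4.66% of all genes tested were called higher and 9.11% lower. The part of thymocytes or of any other of these cells in the cell cycle values was not tested.

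Markers of mTEC stages are given beside these values, and their part in them was not tested. Of 8 markers of the Aire stage 3 were lower in Cre-positive samples, with H2-Ab1 the most abundant of the list and the summed level overlapping (59050.5 to 92757.7 and 63625.0 to 94916.5 normalized counts). Of 7 markers of immature mTECs 3 were called higher and none lower, and the groups did not overlap for any of the 6 tested. Among all genes tested 4.66% were called higher, 9.11% were called lower and 25.3% had groups that did not overlap. The 6 immature markers tested did not share a direction, as 4 had a log2 fold change above 0 and 2 below, the lowest being -1.62. The summed level of the immature list was separate between the groups, at 9303.2 to 10890.4 normalized counts in Cre-negative and 14949.9 to 16932.6 in Cre-positive samples. Ccl21a, with an entry on chromosome 4 and another on an unplaced scaffold, was listed at 0 in every library and was not tested. How reads shared between such entries would be counted is not stated, so the 0 does not show that its RNA was absent.

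Promoters of cell cycle genes can carry letters bound by the factors that time the cycle. Those of the called genes are shown with Top2a and Mcm6, which are among the members richest in NF-Y boxes and in E2F letters, so that each kind of letter can be seen. RefSeq windows of 300 bases, from 250 before to 50 after the start, were found for 30 of the 36 members on GRCm38.p6, and not for Aurkb, Ccna2, Ccne2, Gins2, Mcm4 and Tpx2. Motifs were read on both strands. The E2F letters were TTTCCCGC, TTTCGCGC, TTTGCCGC or TTTGGCGC, which may overlap each other on opposite strands, the CHR element was TTTGAA, and the NF-Y box was CCAAT. In the 180 bases before the start, capitals mark these motifs, which on the opposite strand read TTCAAA for CHR and ATTGG for the NF-Y box.
Ccnb2 (chr9:70421555-70421734, minus strand): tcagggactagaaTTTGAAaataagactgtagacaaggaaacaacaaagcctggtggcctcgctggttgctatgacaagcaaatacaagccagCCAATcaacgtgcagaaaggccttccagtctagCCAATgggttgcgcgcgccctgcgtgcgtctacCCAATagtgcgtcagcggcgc
Top2a (chr11:99024190-99024369, minus strand): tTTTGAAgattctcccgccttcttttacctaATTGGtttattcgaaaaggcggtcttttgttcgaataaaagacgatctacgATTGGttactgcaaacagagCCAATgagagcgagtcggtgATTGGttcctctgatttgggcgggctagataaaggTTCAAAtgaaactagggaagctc
Mcm6 (chr1:128359706-128359885, minus strand): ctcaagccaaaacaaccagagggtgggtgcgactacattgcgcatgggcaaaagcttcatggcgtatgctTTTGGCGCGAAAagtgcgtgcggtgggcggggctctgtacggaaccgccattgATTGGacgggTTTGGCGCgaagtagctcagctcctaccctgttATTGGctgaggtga
Mcm7 (chr5:138171267-138171446, minus strand): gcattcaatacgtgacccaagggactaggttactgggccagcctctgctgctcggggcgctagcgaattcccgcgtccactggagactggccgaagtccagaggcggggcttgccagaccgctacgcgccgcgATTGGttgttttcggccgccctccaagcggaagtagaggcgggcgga

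Ccnb2 holds CCAAT at 87, 54 and 21 bases before its start and TTTGAA at 167 before it, and a further TTTGAA follows 5 bases after the start, outside the stretch shown. Top2a holds 4 NF-Y boxes in its stretch and CHR letters at 179 and 23 bases before the start. Mcm6 holds 3 E2F matches, 2 of which overlap, and 2 NF-Y boxes. The Mcm7 window shown belongs to the inner of its 2 RefSeq starts and holds 1 NF-Y box. The window of its outer start, which overlaps exons and is not shown, holds 2 E2F matches. The CHR letters were in the window of 13 of 17 members of G2 and mitosis (76.5%), of 1 of 13 of G1/S and replication (7.69%), and of 20.2% of 27025 genes with a window. The E2F letters were in 1 of 17 (5.88%), 6 of 13 (46.2%) and 2.60%. The NF-Y box was in 16 of 17 (94.1%), 8 of 13 (61.5%) and 41.1%. Birc5, Ccne1, E2f1 and Tyms held none of the 3 motifs in their windows. These are matches of letters and not measured sites, and the only called gene of G2 and mitosis, Ccnb2, holds the same kinds of letters as Top2a, which was not called.

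Around the members, 118 further cell cycle genes in 5 lists were tested. Of these 7 (5.93%) were higher in Cre-positive samples and 4 (3.39%) lower, beside backgrounds of 4.66% and 9.11%, and the median log2 fold change was 0.15. The 9 G1 cyclins and kinases held 2 higher genes and no lower one (median 0.46). Cdk4, a kinase that D-type cyclins activate, had 1402.8, 782.1, 2241.3 and 2016.1 normalized counts without Cre (libraries 46, 48, 75 and 77) and 3286.3, 3153.5 and 5514.1 with it (libraries 45, 76 and 80) (log2 fold change 1.37, SE 0.32, limma adjusted p = 0.0134). The groups were separate, and without Cre-positive 80 Cdk4 was not called (limma adjusted p = 0.0573). Tspan31, which overlaps Cdk4 on the opposite strand, rose as well (log2 fold change 1.76, limma adjusted p = 0.0108), and without a strand setting their shared reads cannot be told apart. Ccnd1, its activating cyclin, had 218.7, 279.7, 367.5 and 224.4 normalized counts in the Cre-negative libraries and 598.7, 513.7 and 614.5 in the Cre-positive ones, in the same order (log2 fold change 1.10, SE 0.24, limma adjusted p = 0.00889). Its groups were separate as well.

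CDK inhibitors changed in both directions. Of 7 tested 1 was higher and 1 lower (median -0.04). Cdkn1c, which encodes the inhibitor p57, had 895.0, 1327.8, 993.6 and 897.4 normalized counts across the Cre-negative libraries 46, 48, 75 and 77, against 2322.9, 2907.1 and 3478.5 across the Cre-positive libraries 45, 76 and 80. Its groups were far apart (log2 fold change 1.5, SE 0.20, limma adjusted p = 4.43e-04), and it was called under all 18 alternative settings. Cdkn2c, which encodes an inhibitor of CDK4 and CDK6, fell to 362.6 ± 65.6 normalized counts (SD, n = 3) with Cre, from 737.1 ± 203 without it (SD, n = 4), with a limma adjusted p of 0.0229. Cre-negative 48, at 455.1, was near the highest Cre-positive sample, at 437.8. Leaving out any of the Cre-negative libraries 46, 75 and 77 or of the Cre-positive libraries 76 and 80, Cdkn2c lost its call (limma adjusted p from 0.0527 to 0.0732). Cdkn1a, Cdkn1b and Cdkn2a had log2 fold changes of -0.16, 0.03 and -0.46 and were not called (limma adjusted p = 0.680, 0.963 and 0.600). Cdkn2d, of the same list, had 120.2 to 191.9 normalized counts in Cre-negative and 202.7 to 350.9 in Cre-positive samples. Its log2 fold change of 0.83 was not called (limma adjusted p = 0.0722). The authors' deposited table calls Cdkn2d higher with Cre (adjusted p = 0.0244 there).

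Of 18 genes of the retinoblastoma, E2F and DREAM regulators 1 fell and none rose (median -0.26). Tfdp1, the partner with which E2F factors bind DNA, had 2064.0, 1628.2, 1798.1 and 1863.1 normalized counts without Cre (libraries 46, 48, 75 and 77) and 984.3, 900.3 and 819.0 with it (libraries 45, 76 and 80) (log2 fold change -1.03, SE 0.16, limma adjusted p = 0.00147). The groups were far apart, and Tfdp1 was called under all 18 alternative settings. The mitotic activators Foxm1 and Mybl2 had 36 to 100 and 11 to 29 reads per library and log2 fold changes of 0.32 and 0.57 (limma adjusted p = 0.692 and 0.588).

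**Figure D4:**
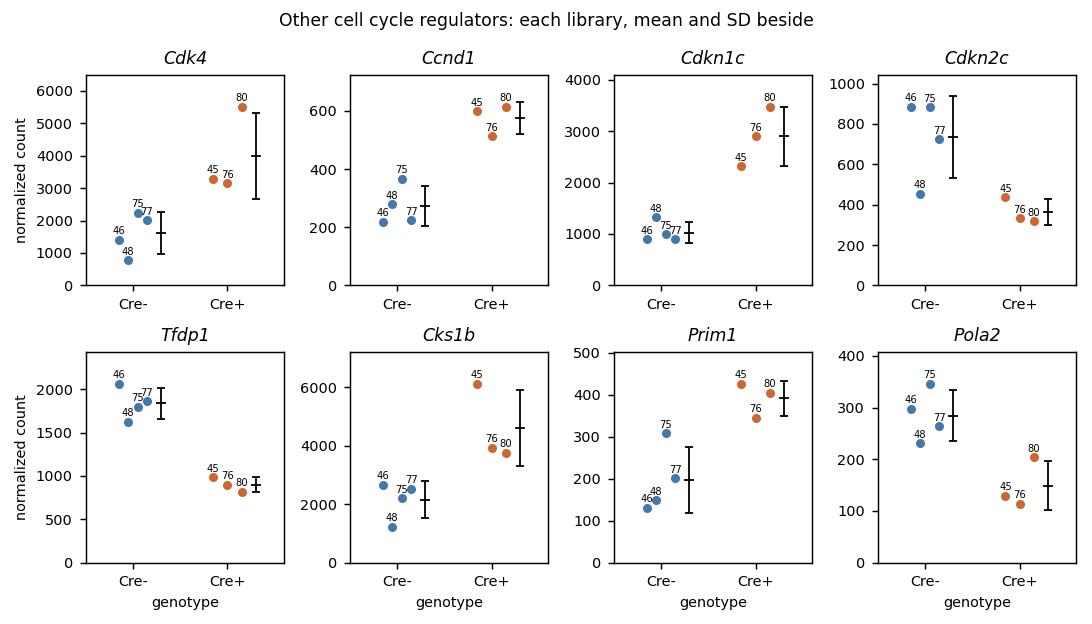
Normalized counts (y axis, from 0) of 8 further cell cycle regulators in each Cre-negative (blue) and Cre-positive (orange) library, numbered as in the labels, with the group mean and SD beside the points. Cdk4, Ccnd1, Cdkn1c, Cks1b and Prim1 are higher and Cdkn2c, Tfdp1 and Pola2 lower in all 3 Cre-positive libraries.

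Among 36 other replication genes 3 rose and 1 fell (median 0.29). DNA polymerase alpha and primase form a single complex that starts each new strand, and 2 of its subunits changed in opposite directions. Prim1, the catalytic primase subunit, rose to 391.2 ± 41.8 normalized counts (SD, n = 3) with Cre, from 196.6 ± 79.5 without it (SD, n = 4), a log2 fold change of 1.06 (limma adjusted p = 0.0336). Pola2, the accessory polymerase subunit, fell from 284.4 ± 49.3 to 149.1 ± 47.7, a log2 fold change of -0.96 (limma adjusted p = 0.0400). Their ratio, Prim1 to Pola2, was 0.439, 0.641, 0.888 and 0.761 across the Cre-negative libraries 46, 48, 75 and 77, against 3.28, 3.02 and 1.98 across the Cre-positive libraries 45, 76 and 80. It was picked after its values were seen and has no test. Its separation follows from the opposite calls of the 2 genes and adds nothing to them. The other subunits, Prim2 and Pola1, had log2 fold changes of -0.95 and 0.74 and were not called (limma adjusted p = 0.0596 and 0.130). Prim2 is nevertheless called lower with Cre in the authors' deposited table (adjusted p = 0.0144 there), whereas Pola1 is not (0.109). Orc4, of the origin recognition complex, rose by a log2 fold change of 0.73 and Slbp, which binds histone mRNA, by 0.95 (limma adjusted p = 0.0261 and 0.0246). Leaving out single libraries ended each of these calls. Prim1 was not called without any one of 6 libraries, Cre-negative 75 being the exception (limma adjusted p from 0.0587 to 0.101). Pola2 lost it without Cre-negative 46, 75 or 77, and without Cre-positive 45 or 76 (0.0725 to 0.128), and Orc4 without Cre-negative 48 or 75 or any Cre-positive library (0.0502 to 0.0792). Slbp lost it without Cre-negative 46 or 77, and without Cre-positive 45 or 80 (0.0508 to 0.0797). The term for Y-linked reads ended all 4 calls (limma adjusted p from 0.05002 to 0.0886). Library total scaling ended those of Prim1 and Orc4 (0.0713 and 0.0782), and edgeR and testing without a filter that of Pola2 (adjusted p = 0.0502 and 0.0658).

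Among 48 other mitotic genes 1 rose and 1 fell (median 0.05). Cks1b, a small subunit of CDK complexes, had 2654.0, 1231.2, 2190.9 and 2527.9 normalized counts across the Cre-negative libraries 46, 48, 75 and 77, against 6107.6, 3932.6 and 3760.8 across the Cre-positive libraries 45, 76 and 80 (log2 fold change 1.12, SE 0.26, limma adjusted p = 0.0129). It was highest in Cre-positive 45, like most mitotic genes, and without that library was not called (limma adjusted p = 0.0583). Kif4, a chromosome-bound kinesin on the X chromosome, had 319.3, 208.8, 289.2 and 325.7 normalized counts in Cre-negative samples and 167.2, 80.1 and 92.4 in Cre-positive samples, in the same order (log2 fold change -1.38, SE 0.31, limma adjusted p = 0.0120). It was called under all 18 alternative settings, and Cre-positive 45 was again the highest of its group. Pkmyt1 and Ckap2, of the same list, were not called in limma. The authors' deposited table calls both higher with Cre (adjusted p = 0.0192 and 0.0408 there).

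The authors' deposited table holds an adjusted p for 32 of the 36 members and calls 2 of them, Mcm7 and Ccnb2 (adjusted p = 0.0163 and 0.0134 in the authors' deposited table), and gives none for Hmgb2, Mcm3, Rrm2 and Ube2c.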

How the data were processed

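The authors deposited 1 table of 55536 genes for the 7 samples. Per the submitters' processing notes, STAR 2.7.9a, DESeq2 and build GRCm39 were used, whereas the table's coordinates equal GENCODE M21 on GRCm38 for 95.2% of shared genes, so positions are on GRCm38. Neither the read counter nor its treatment of strand is stated. The columns are, per the file headers, normalized counts (a signal, gene counts divided by a size factor and rounded), stabilized values on a log2 scale, and the authors' log2 fold change with p-value and adjusted p-value. Dividing each value by the worth of 1 read in its sample gave whole reads for 100% of values (tolerance 0.0501). Library totals are sums of these recovered reads, and with 4 and 3 samples per group the number of samples limits the precision.

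A mean of 5 normalized counts over the samples was required for a test with limma 3.58.1 (R 4.3.3) on log2(normalized count + 1), which understates changes of low genes, with genotype as the only term. The main test is limma because the deposited values are not raw counts. Positive fold changes are higher in Cre-positive samples. Alternatives were edgeR 4.0.16, DESeq2 1.42.0 and limma-voom on the recovered reads, library total scaling, pseudocounts of 0.5 and 5, no filter or a mean of at least 50, a term for the sample number range, a term for Y-linked reads and each sample left out. The term for Y-linked reads marks Cre-negative 48 only and gives the log2 fold changes found with that library left out. The deposited stabilized values were added after seeing the data. Scripts were tested on simulated data. Summaries and figures used Python 3.11.15 with pandas 2.3.3, matplotlib 3.10.9 and numpy 2.4.6.

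Levels per kilobase divide by the union of GENCODE M21 exons. The promoter sequences are from RefSeq on GRCm38.p6. The text names all 36 members, from each pathway list up to 5 called genes with the largest change, Cdkn1a, Cdkn1b, Cdkn2a, Foxm1 and Mybl2, and the most abundant marker of each cell type list. One item that this rule takes is not reported here. Other genes named (Tspan31, Cops6, Ccnb2-ps, Prim2, Pola1, Cdkn2d, Pkmyt1, Ckap2, Pax5, Krt5 and Cldn4), and the ratios, were chosen after their values were seen. The members and lists were chosen with earlier results of these data known.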

Additional observations from a re-analysis of the deposited data

Results flagged for a closer look

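Of 52 genes looked at in the 4 Cre-negative samples, 1 had a library far from the others. Cenpe, a kinetochore motor, had 302.4 normalized counts in Cre-negative 48 and 459.0 to 487.4 in the other Cre-negative samples. That gap was 0.846 of the group's range, above Dixon's 95% critical value for 4 samples. Chance flags about 1 in 20 groups, and 1 flag among 52 genes is no more than that rate. Cre-negative 48 was the lowest Cre-negative library for 14 of the 20 members of G2 and mitosis, Cenpe being 1 of the 14.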

How the results depend on the processing

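No paired analysis was possible because the groups share no sample number. Of the 36 members 19 kept their direction under every alternative that tested them, 17 reversed in at least 1, and 34 were called in none. The number of alternatives was 18, or 17 for Cdc6 and E2f1, which a mean of at least 50 counts leaves out. No library left out brought a further member to a call. Against 2 members called higher, library total scaling gave 0, the term for Y-linked reads (which sets Cre-negative 48 apart, as leaving it out does) 0 and no filter 1. Of the further cell cycle genes the Y-linked term left 4 called higher. Over all genes, library total scaling gave 583 higher, limma-voom 1352 lower and a mean of at least 50 counts 1274 lower. Leaving out 1 library gave 590 to 1004 higher and 1309 to 1740 lower over all genes, 0 to 1 members higher, and 3 to 9 higher and 2 to 4 lower among the further genes.

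Reversals were of log2 fold changes that were not called. Cdc6 was -0.15 in edgeR, -0.15 in DESeq2, -0.13 with library totals, -0.30 with the Y-linked term and -0.0081 on stabilized values. Ccne1 was 0.018 in limma-voom, 0.028 with the number range term and 0.12 with the Y-linked term. Library totals gave -0.068 for Ccna2, -0.093 for Mki67, -0.18 for Top2a, -0.13 for Plk1 and -0.18 for Cdkn1b. The Y-linked term gave 0.013 for Mcm2, -0.0099 for Cdk1, -0.13 for Mki67, -0.17 for Top2a, -0.11 for Plk1 and -0.062 for Cdkn1b. With 1 library left out the ranges were -0.46 to 0.22 (Ccne1), -0.27 to 0.11 (Kif11), -0.25 to 0.066 (Tpx2), -0.38 to 0.15 (Mcm2), -0.30 to 0.42 (Cdc6), -0.0099 to 0.45 (Cdk1), -0.13 to 0.28 (Mki67), -0.17 to 0.23 (Top2a), -0.20 to 0.28 (Plk1), -0.088 to 0.17 (Cdkn1b), -0.089 to 0.38 (Hmgb2), -0.023 to 0.92 (Cenpe), -0.19 to 0.55 (Cenpf), -0.61 to 0.23 (Aurkb), -0.51 to 0.26 (Cdc20), -0.083 to 0.54 (Mcm3) and -0.98 to 0.0052 (Ccnb1). The cause was not tested. Low read numbers limit Cdc6, E2f1, Foxm1 and Mybl2.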
